A study of Homo sapiens with 4 samples.

Results

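Open chromatin at the ends of long noncoding RNA (lncRNA) genes was examined in 786-O cells, a line from a human clear cell renal cell carcinoma that has no functional VHL protein. Peaks of 4 ATAC-seq libraries were merged wherever they overlapped by at least 1 bp, which gave 53572 regions. A region was taken as an lncRNA-end region when it lay within 1000 bp of either end of a gene that RefSeq calls lncRNA or ncRNA and more than 1000 bp from both ends of every protein-coding gene. This gave 2762 regions, 5.16% of all regions, at 2647 of the 18355 noncoding genes in the GRCh38.p14 gene table. Of these noncoding genes, another 2216 had a nearby region only where a protein-coding end was also within 1000 bp, as at shared promoters, and are not described here. The comparison groups were 11549 regions at protein-coding ends and 39261 regions away from both kinds of end. Ends are the outer limits of a gene's span, so a start site inside a protein-coding gene does not count as an end.

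2 libraries came from cells given DMSO at a dilution of 1:2000, and 2 from cells given 5 µM ACSS2i, both for 24 h. All 4 come from the same established line, so the missing VHL protein is shared by both groups. ACSS2i is, by its name, an inhibitor of ACSS2, an enzyme that makes acetyl-CoA from acetate. The labels number the libraries within each treatment and do not say that they come from separate cultures, so each p-value reflects the spread among these 4 samples alone, and that spread may be technical. ATAC-seq uses the Tn5 transposase to cut DNA that is not wrapped in nucleosomes, and a peak marks where more fragments were found than in the surroundings.

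An lncRNA is transcribed and often spliced like a messenger RNA but encodes no long protein. Some act on chromatin or in nuclear bodies, as MALAT1 in nuclear speckles and NEAT1 in paraspeckles do, some are hosts from which microRNAs or small nucleolar RNAs (snoRNAs) are cut, and for many the RNA has no known function. In cells without VHL, hypoxia-inducible factors are not degraded, and MIR210HG, the host of miR-210, is a known target of these factors.

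The whole lists set the limits of every count that follows. DMSO replicate 1 had 34696 peaks and DMSO replicate 2 had 50294, while ACSS2i replicate 1 had 16400 and ACSS2i replicate 2 had 22044. The read totals behind them were not used here, but the genome-wide background coverage recovered from the lists was 2.06, 1.75, 2.32 and 3.16 reads or fragments in the same order. The ACSS2i libraries, with the fewest peaks, had the higher background values. Why the lists differ in length was not tested. Of 10 kidney tubule and 786-O genes such as PAX8, VIM and CA12, 9, 9, 6 and 9 had one of their ends within 1000 bp of a peak. Of 10 immune genes, 0, 2, 0 and 0 did (CD14 and CD8A in DMSO replicate 2), and of 6 endothelial genes none did in any library. In bulk samples, fewer cells with an open region and less opening per cell cannot be told apart.

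Promoters of 7 lncRNA genes are printed as examples, because each lay under a region described below. Each runs from 250 bases before to 50 after the annotated start, 5′ to 3′ on the gene's strand, and is RefSeq sequence of GRCh38.p14. Capitals mark matches on either strand to AP-1 (TGANTCA), the hypoxia response element (HRE, ACGTG), the GC box (GGGCGG), the CCAAT box (CCAAT), the TATA box (TATAAA) and TEAD (GGAATG). An HRE in the palindrome CACGTG is found on both strands, so both matches overlap. DANCR (chr4:52712144-52712443, plus strand), MIR210HG (chr11:568408-568707, minus strand), LUCAT1 (chr5:91314353-91314652, minus strand) and LINC00973 (chr3:98914316-98914615, plus strand) lay under regions with a peak in all 4 libraries. MIR155HG (chr21:25561895-25562194, plus strand) lay under a region without a peak in ACSS2i replicate 1. LOC105377134 (chr21:14027182-14027481, plus strand) and LOC124901045 (chr5:113294610-113294909, plus strand) are among the strongest regions that both DMSO lists and neither ACSS2i list contained. All 300 bases lay inside the region for 5 of them, 281 for LUCAT1 and 271 for LOC105377134.
DANCR: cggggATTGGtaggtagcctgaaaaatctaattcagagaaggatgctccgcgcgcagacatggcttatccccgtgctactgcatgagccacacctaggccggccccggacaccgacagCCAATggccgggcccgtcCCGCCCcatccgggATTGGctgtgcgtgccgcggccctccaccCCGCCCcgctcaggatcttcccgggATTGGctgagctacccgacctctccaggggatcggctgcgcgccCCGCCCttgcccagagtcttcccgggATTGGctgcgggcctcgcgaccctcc
MIR210HG: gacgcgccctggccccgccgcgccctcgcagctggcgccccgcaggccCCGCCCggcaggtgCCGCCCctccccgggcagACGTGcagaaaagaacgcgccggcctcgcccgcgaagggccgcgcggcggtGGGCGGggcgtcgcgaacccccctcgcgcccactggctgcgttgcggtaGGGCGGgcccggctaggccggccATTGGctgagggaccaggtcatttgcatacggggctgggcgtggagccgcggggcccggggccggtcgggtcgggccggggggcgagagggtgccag
LUCAT1: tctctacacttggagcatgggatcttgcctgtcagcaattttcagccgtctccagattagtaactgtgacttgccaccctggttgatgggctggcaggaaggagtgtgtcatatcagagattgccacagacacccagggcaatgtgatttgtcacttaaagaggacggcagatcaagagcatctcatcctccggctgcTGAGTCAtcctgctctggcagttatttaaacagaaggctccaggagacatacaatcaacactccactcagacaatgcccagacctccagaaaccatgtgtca
LINC00973: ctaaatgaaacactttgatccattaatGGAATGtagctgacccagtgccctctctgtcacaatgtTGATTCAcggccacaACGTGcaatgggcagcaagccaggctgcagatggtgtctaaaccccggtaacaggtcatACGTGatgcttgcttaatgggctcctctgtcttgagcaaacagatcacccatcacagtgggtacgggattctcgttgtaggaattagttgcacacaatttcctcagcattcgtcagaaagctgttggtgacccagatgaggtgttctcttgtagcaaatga
MIR155HG: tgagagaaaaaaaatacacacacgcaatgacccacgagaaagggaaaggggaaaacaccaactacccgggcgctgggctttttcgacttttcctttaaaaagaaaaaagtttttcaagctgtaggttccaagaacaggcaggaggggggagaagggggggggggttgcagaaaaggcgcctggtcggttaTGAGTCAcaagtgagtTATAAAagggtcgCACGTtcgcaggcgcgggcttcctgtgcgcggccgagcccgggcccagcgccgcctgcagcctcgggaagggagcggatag
LOC105377134: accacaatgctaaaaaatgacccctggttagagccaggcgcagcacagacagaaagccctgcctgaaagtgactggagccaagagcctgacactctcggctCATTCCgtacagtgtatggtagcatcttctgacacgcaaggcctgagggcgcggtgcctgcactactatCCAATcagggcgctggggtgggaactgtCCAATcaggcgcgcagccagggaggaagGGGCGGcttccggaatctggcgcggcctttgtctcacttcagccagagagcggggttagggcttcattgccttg
LOC124901045: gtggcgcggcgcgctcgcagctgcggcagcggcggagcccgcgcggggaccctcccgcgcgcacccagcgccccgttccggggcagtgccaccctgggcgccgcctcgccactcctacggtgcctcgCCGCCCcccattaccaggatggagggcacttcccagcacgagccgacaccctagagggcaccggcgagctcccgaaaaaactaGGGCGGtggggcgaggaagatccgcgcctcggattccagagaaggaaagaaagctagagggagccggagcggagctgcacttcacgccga
LUCAT1, LINC00973 and MIR155HG each hold an AP-1 match, and DANCR and MIR210HG hold several GC and CCAAT boxes between them. These examples were picked after values were seen and do not stand for their classes, whose motif shares are given at the end.

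Of the microRNA hairpins in the RefSeq table, 14 microRNA genes lay inside 13 of the lncRNA-end regions, so that in these places the open region covers the microRNA itself. The mature sequences of 4 of these genes are printed with the seed, bases 2 to 8 from the 5′ end, in capitals. The seed is the part that pairs with target messages.
hsa-miR-210-3p: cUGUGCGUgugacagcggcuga
hsa-miR-210-5p: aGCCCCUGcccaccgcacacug
hsa-let-7i-5p: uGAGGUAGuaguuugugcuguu
hsa-miR-132-3p: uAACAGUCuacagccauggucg
hsa-miR-212-3p: uAACAGUCuccagucacggcc
The hairpin of miR-210 lay inside the MIR210HG region and that of let-7i inside the region of MIRLET7IHG and LINC01465, and both regions had a peak in all 4 libraries. The 3p forms of miR-132 and miR-212 share a seed, and both hairpins lay in the same region beside LOC124903896, which had a peak only in DMSO replicate 2.

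Fewer lncRNA-end regions had a peak after ACSS2i. DMSO replicates 1 and 2 had 1948 and 2634 of them, whereas 960 and 1239 were counted for ACSS2i replicates 1 and 2. The groups did not overlap. The means were 2291 ± 485 and 1099.5 ± 197 (SD, n = 2 each), a ratio of 0.480, with a two-sided exact permutation p of 0.333, the smallest that 2 against 2 can give. With every list reduced to its 16400 strongest peaks the ratio was 0.981 (exact permutation p = 0.667). As a share of each library's regions they were 5.74% and 5.30% in DMSO against 6.15% and 5.83% in ACSS2i, a difference of 0.475 percentage points (exact permutation p = 0.333). At equal list length the difference was 0.0537 percentage points (exact permutation p = 0.667). In contrast, protein-coding ends held 28.1% and 22.8% of the DMSO regions against 36.5% and 33.6% of the ACSS2i regions. Noncoding genes with an lncRNA-end region numbered 1930, 2541, 972 and 1258 in the same order of libraries.

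The signal at the same regions was lower as well. Among the 826 lncRNA-end regions with a peak in all 4 libraries, the median pileup, the number of reads or fragments over the summit, was 40 and 78 in DMSO against 21 and 30 in ACSS2i. Divided by the background coverage of the library it was 19.4 and 44.6 in DMSO against 9.07 and 9.48 in ACSS2i (exact permutation p = 0.333). Over all regions with a peak in all 4 libraries the same ratio was 19.2, 44.1, 8.64 and 9.17, close to the lncRNA ends in every library. DMSO replicate 2 stood above DMSO replicate 1 by more than the ACSS2i libraries differed from each other. The median fold enrichment over local background, as deposited by the authors, moved the same way. Over the 826 it was 6.80 and 9.48 in DMSO against 4.87 and 4.86 in ACSS2i. Over all regions in all 4 libraries it was 6.90 and 9.81 against 4.90 and 4.88. The fold was lower in both ACSS2i libraries than in either DMSO library at 663 of the 826 (80.3%, against 82.2% over all regions), and higher in both at 6 (0.726%, against 0.383%). A lower fold without overlap at a gene named here is therefore what most regions show.

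**Figure D1:**
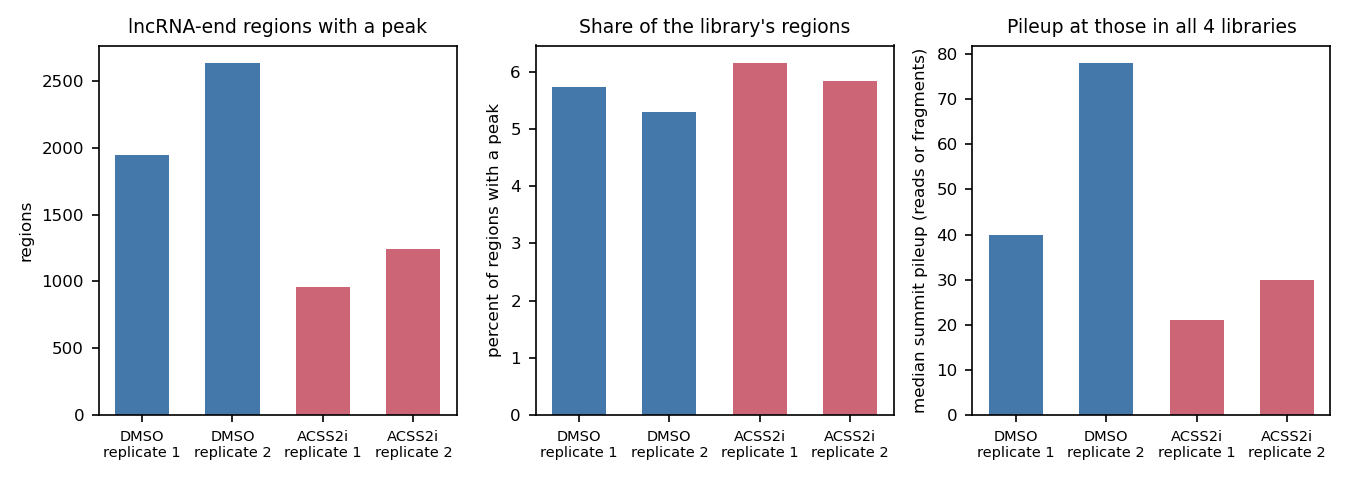
Bars give, for each of the 4 libraries (blue DMSO, red ACSS2i), the number of lncRNA-end regions with a peak, their percent of the library's regions, and the median summit pileup at the 826 regions found in all 4 libraries. Counts run from 960 to 2634 and pileup from 21 to 78, with both ACSS2i libraries below both DMSO libraries, while the share lies between 5.30% and 6.15%.

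Both DMSO libraries had a peak at 1845 lncRNA-end regions. Of these, 556 (30.1%, exact 95% binomial interval 28.0% to 32.3%, counting error only) had no peak in either ACSS2i library and are called DMSO-only below. The same share was 33.5% over all regions, 20.7% at protein-coding ends and 39.8% away from both kinds of end. Thus lncRNA ends lay near the share of all regions, between the other classes. A peak in all 4 libraries was found at 826 (44.8%, against 42.2% over all regions). A peak in exactly 1 ACSS2i library was found at 463 (25.1%), against 23.6% at protein-coding ends and 24.5% away from both kinds of end. ACSS2i replicate 1 lacked 49.2% of the 1845 regions and ACSS2i replicate 2 lacked 36.2%. Over all regions, with the other ACSS2i library left out, these shares were 52.21% and 39.05%, so lncRNA ends lay slightly below the general level. No lncRNA-end region was present in both ACSS2i libraries while absent from both DMSO libraries. That is 0 of 832, for which the upper limit of the share is 0.361%. Over all regions this was 0.0897%. Of 1367 regions present in at least 1 ACSS2i list, 25 were absent from both DMSO lists. At protein-coding ends this was 26 of 7596, and away from both kinds of end 1349 of 14502.

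These counts moved with list length and with single libraries. With every list reduced to its 16400 strongest peaks, 53 lncRNA-end regions were DMSO-only (6.68%, against 6.41% over all regions). Of these 53, 33 (62.3%) were DMSO-only in the full lists too, which is 5.94% of the 556. At that length 35 of 753 regions (4.65%, against 4.16% over all regions) had a peak in both ACSS2i libraries and in no DMSO library. Without DMSO replicate 1 the DMSO-only count was 1307 (49.4%, against 55.9% over all regions), and without ACSS2i replicate 2 it was 907 (49.2%, against 52.2%).

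Regions with a peak in all 4 libraries were stronger in DMSO than DMSO-only regions. Strength is the percentile of a peak's −log10 q within its list, and for a group the lower of the library percentiles. Its median over the DMSO libraries was 25.7 for DMSO-only regions and 76.3 for regions in all 4 libraries. From the weakest to the strongest of 5 equal steps of the scale, 213 of 279, 191 of 365, 119 of 426, 29 of 397 and 4 of 378 lncRNA-end regions were DMSO-only. These shares are 76.3%, 52.3%, 27.9%, 7.30% and 1.06%. Protein-coding ends had 72.2%, 48.6%, 21.6%, 4.25% and 0.203%, and regions away from ends 81.1%, 61.3%, 33.7%, 9.90% and 0.550%. In the lower 4 steps the lncRNA ends lay between the other classes, and in the strongest the count is 4 regions. DMSO-only regions were also narrower, with a median width of 607.5 bp against 1118.5 bp for those in all 4 libraries. This is the width of the merged region, which joins the peaks of every library that has one. Regions in all 4 libraries can thus be wider by construction, and the size of that part was not tested.

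**Figure D2:**
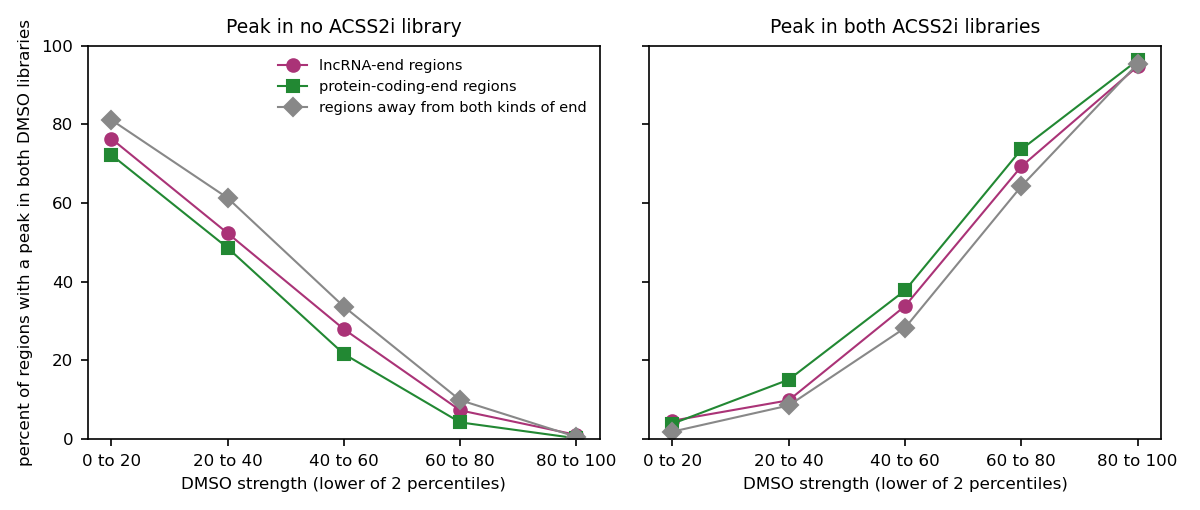
Regions with a peak in both DMSO libraries are grouped by DMSO strength (percentile, x axis), and the y axis gives the percent with no ACSS2i peak (left) or a peak in both ACSS2i libraries (right) for 3 classes of region. For lncRNA ends the left panel runs from 76.3% down to 1.06%, between the other classes except in the strongest step.

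The 10 strongest lncRNA-end regions in DMSO all kept a peak in both ACSS2i libraries. This is the general level for strong regions. In the strongest step of DMSO strength, 94.7% of lncRNA-end regions and 95.7% of all regions did so. Most lie at genes known only by a provisional LOC name, for which no function is known. The strongest lay at LOC107986397 (chr5:1555082-1556142) and covered one end of the gene. Its fold enrichment was 10.7 and 14.0 in DMSO against 8.17 and 7.34 in ACSS2i, and its pileup 111 and 229 against 59 and 85. Both ACSS2i values were below both DMSO values. At LINC02912 (chr8:127949159-127950635), inside the span of the noncoding gene PVT1, the fold was 9.57 and 12.6 in DMSO against 8.07 and 7.04 in ACSS2i. LOC124901722 (chr7:108525374-108526675), whose 5′ end lay in the region, had 10.4 and 12.6 in DMSO against 8.31 and 7.17 in ACSS2i. The groups did not overlap at LINC02912 or LOC124901722. The LOC124901722 region also overlapped the span of a protein-coding gene, with the nearest coding end 1503 bp away, so it cannot be assigned to LOC124901722 alone.

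The region at LOC124901574 (chr7:3194586-3195339) differed most between the ACSS2i libraries among these 10: its fold was 11.2 and 15.9 in DMSO against 7.68 and 5.00 in ACSS2i. SLC25A28-DT (chr10:99620012-99621656) is a divergent transcript named for its neighbour SLC25A28, a mitochondrial iron importer, and had a fold of 10.4 and 11.3 in DMSO against 7.39 and 9.02 in ACSS2i. LOC101927949 (chr1:152047642-152049014) had 10.3 and 11.3 in DMSO against 8.70 and 9.93 in ACSS2i, so the groups were close but did not overlap. The other 4 were at LOC124901788, LOC124901999, LOC101927623 and LOC124903584, with folds of 7.55 to 14.7 in DMSO against 6.33 to 8.25 in ACSS2i. The region of LOC124903584 lay exactly 1000 bp from the gene's 3′ end, at the edge of the rule. That of SLC25A28-DT overlapped the span of a protein-coding gene.

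Ranked by ACSS2i instead, the 5 strongest regions lay at NDST1-AS1, LINC02970, LOC107986397, LOC101927949 and LINC02912, of which the last 3 were also among the 10 strongest in DMSO. NDST1-AS1 is an antisense gene named for NDST1, an enzyme of heparan sulfate synthesis. Its region (chr5:150472712-150474608), 908 bp from the 3′ end, had a fold of 6.21 and 8.34 in DMSO against 8.28 and 7.19 in ACSS2i. These ranges overlapped, although the pileup was 106 and 221 in DMSO against 68 and 93 in ACSS2i. LINC02970 (chr20:62602648-62604323), an intergenic lncRNA, had a fold of 9.74 and 9.43 in DMSO against 8.05 and 7.14 in ACSS2i.

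The strongest DMSO-only regions were strong peaks in both DMSO lists. The first lay 719 bp from the 5′ end of TMEM105 (chr17:81329051-81329955), a gene with a protein-like name that RefSeq lists as lncRNA. Its fold was 7.40 and 10.2 and its pileup 43 and 85 in DMSO replicates 1 and 2, at percentiles of 84.3 and 89.3 of the lists, and no peak was called in ACSS2i. The region over the start of LOC105377134 (chr21:14027211-14027699), whose promoter is printed above, had folds of 9.42 and 14.2 and pileups of 29 and 67. That over the start of LOC124901045 (chr5:113294101-113295379) had folds of 7.81 and 11.2 and pileups of 39 and 58. XIRP2-AS1, an antisense gene at the muscle gene XIRP2, had the widest gap in fold between DMSO libraries of these 10, with folds of 7.70 and 17.2 and pileups of 30 and 70 at chr2:167140625-167141082. The others were LOC124901782, LOC105378918, LOC124902934, TODL, LOC107985365, and LINC01823 with LOC105373590, with DMSO folds of 6.80 to 11.8. The regions of LOC124901045, XIRP2-AS1, LOC105378918 and LOC124902934 overlapped the span of a protein-coding gene.

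The gene lists that follow are counted per gene, and a gene with several regions counts by any of them. Counted in this way, 1832 of the 2647 genes with an lncRNA-end region had one present in both DMSO lists, 846 of these (46.2%) had one with a peak in all 4 libraries and 518 (28.3%) were DMSO-only. Of all 18355 noncoding genes, 14.4% had an lncRNA-end region. These shares are the level against which the short lists are to be read.

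Among 18 hypoxia-linked lncRNAs, 8 had an lncRNA-end region, 4 had a region only at a protein-coding end and 6 had none. All 8 had a peak in both DMSO libraries, 7 had a region with a peak in all 4 libraries and none was DMSO-only. MIR210HG (chr11:567787-569154) covers the miR-210 hairpin, and its fold was 5.46 and 10.4 in DMSO against 4.42 and 3.84 in ACSS2i. MIR210HG was added after its values were seen. The groups did not overlap, but the DMSO libraries differed more from each other than DMSO replicate 1 did from ACSS2i. EGOT (chr3:4751317-4752658), an antisense transcript in an intron of ITPR1, had 6.88 and 8.94 in DMSO against 6.88 and 7.19 in ACSS2i, with overlapping ranges. MIR31HG, the host of miR-31, had 7.03 and 11.1 in DMSO and 3.60 in ACSS2i replicate 2, and no peak in ACSS2i replicate 1.

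FALEC had 4 lncRNA-end regions. The strongest (chr1:150515373-150516464), over the 5′ end, had folds of 10.4 and 12.3 in DMSO, 3.93 in ACSS2i replicate 2 and no peak in ACSS2i replicate 1. A second region near the 3′ end (chr1:150535822-150536315) had a peak in all 4 libraries, with 6.06 and 7.78 in DMSO against 6.99 and 4.29 in ACSS2i, and is the one by which FALEC counts among the 7.

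MALAT1 and NEAT1, abundant nuclear RNAs that lie near each other on chromosome 11, had regions with a higher fold in ACSS2i than in DMSO. Over the 3′ end of MALAT1 (chr11:65506277-65508512) the fold was 6.81 and 6.22 in DMSO against 8.98 and 7.40 in ACSS2i, so both ACSS2i values were the higher ones. Its pileup was 83 and 122 in DMSO against 54 and 58 in ACSS2i, still lower after ACSS2i. At the 5′ end of MALAT1 (chr11:65497296-65498443) the fold was 4.02 and 5.52 in DMSO against 4.36 and 4.09 in ACSS2i, without separation of the groups. Beside NEAT1 (chr11:65420644-65422268), 530 bp from one end, the fold was 3.59 and 4.19 in DMSO against 4.78 and 4.47 in ACSS2i, with a pileup of 48 and 106 in DMSO against 28 and 43 in ACSS2i. The other end of NEAT1 (chr11:65444850-65447200) was present in every library but ACSS2i replicate 2, with folds of 2.96, 2.81 and 3.66.

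Of the lncRNAs listed as described in renal carcinoma, 20 of 21 were in the gene table, 9 had an lncRNA-end region and all 9 had a peak in both DMSO libraries. 7 had a peak in all 4 libraries and 1 was DMSO-only. DLEU2 (chr13:50123843-50126151), the host of miR-15a and miR-16-1, had a fold of 9.08 and 11.1 in DMSO against 7.96 and 6.88 in ACSS2i. ENTPD3-AS1 (chr3:40452844-40453521), antisense at ENTPD3, which encodes a cell-surface nucleotidase, had 8.10 and 10.5 in DMSO against 4.42 and 4.84 in ACSS2i. LINC00472 (chr6:71419661-71421296), in a region shared with LINC01626, had 7.77 and 11.6 in DMSO against 7.16 and 7.21 in ACSS2i. In all 3 both ACSS2i folds were the lower ones, as at 82.2% of all regions, with the smallest distance between the groups at LINC00472. The DMSO-only gene was PVT1, neighbour of MYC, named here after its values were seen. Its region at one end (chr8:127794065-127796081) had weak peaks of 3.45 and 5.63 in DMSO. The LINC02912 region described above lies inside the span of PVT1 and had a peak in all 4 libraries. DMSO-only thus refers to that end of PVT1 and not to the whole gene.

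snoRNA host genes had an lncRNA-end region at 19 of 29 entries. Most of these genes make spliced RNAs whose introns yield snoRNAs, which guide the modification of ribosomal RNA. Of the 16 present in both DMSO lists, 7 had a peak in all 4 libraries, 6 in 1 ACSS2i library and 3 in none, where 46.2% of all genes so counted had a peak in all 4 and 28.3% were DMSO-only. DANCR (chr4:52712021-52713023) was the strongest, with a fold of 9.43 and 13.8 in DMSO against 9.25 and 6.31 in ACSS2i. DMSO replicate 1 and ACSS2i replicate 1 were closer to each other than to the other library of their group. SNHG15 (chr7:44986120-44987044) had 9.24 and 12.8 in DMSO against 4.81 and 4.25 in ACSS2i. SNHG16 (chr17:76556989-76558675) had 7.46 and 10.9 in DMSO against 3.85 and 4.14 in ACSS2i. SNHG5 (chr6:85678524-85679644) had 6.96 and 8.26 in DMSO against 4.26 and 6.33 in ACSS2i. At these 3 genes the ACSS2i values were the lower ones throughout, as at most regions. The 3 DMSO-only hosts, named after their values were seen, were SNHG11 (4.83 and 5.57 in DMSO), ZFAS1 (3.43 and 3.68) and SNHG32 (2.89 and 4.27), all with low folds in DMSO.

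microRNA host genes had an lncRNA-end region at 14 of 30 entries, all present in both DMSO lists. Of these, 9 had a peak in all 4 libraries, 2 in 1 ACSS2i library and 3 in none. The host of the let-7a-1 cluster, MIRLET7A1HG (chr9:94165852-94167269), had a fold of 7.53 and 11.1 in DMSO against 8.01 and 7.37 in ACSS2i, with overlapping ranges. MIR181A2HG (chr9:124657818-124660356), one of the hosts of the miR-181 family, had 7.85 and 9.33 in DMSO against 7.14 and 7.69 in ACSS2i. MIR3142HG (chr5:160467253-160468676), the host of miR-146a, had 9.12 and 10.6 in DMSO against 7.55 and 8.05 in ACSS2i. The DMSO-only hosts, named after their values were seen, were MIR193BHG (5.71 and 6.49), MIR34AHG (4.17 and 4.60) and MIR17HG (3.49 and 9.53). MIR34AHG is the p53-induced host of miR-34a and MIR17HG the host of the miR-17-92 cluster. MIR17HG was weak in DMSO replicate 1, with a pileup of 14 against 64 in DMSO replicate 2.

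Of 10 lncRNAs linked to NF-kB and inflammation, 5 had an lncRNA-end region, 4 were present in both DMSO lists, and all 4 of these in both ACSS2i lists. MIR155HG, the host of miR-155, had 2 regions. That over the start (chr21:25561656-25562908), which holds the printed promoter, had folds of 5.67 and 8.27 in DMSO against 4.73 in ACSS2i replicate 2, with no peak in ACSS2i replicate 1. That near the 3′ end (chr21:25573016-25574199) had 7.23 and 11.4 in DMSO against 6.53 and 6.06 in ACSS2i. LUCAT1 (chr5:91313465-91314633), a stress-responsive lncRNA, had 5.04 and 6.47 in DMSO against 4.22 and 3.84 in ACSS2i. MIR222HG, the host of miR-221 and miR-222, had 5.07 and 5.39 in DMSO against 5.13 and 3.12 in ACSS2i, and its ranges overlapped.

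Of the p53 and DNA damage list, 10 of 11 entries were in the gene table, 5 of them with an lncRNA-end region. 4 had a peak in both DMSO libraries, 3 in all 4 libraries, and MIR34AHG was DMSO-only. DINOL (chr6:36678375-36681063), a p53-induced transcript at CDKN1A, had 4.64 and 7.38 in DMSO against 3.81 and 3.67 in ACSS2i. Its region overlapped the span of a protein-coding gene, with the nearest coding end 1912 bp away. The peak thus cannot be assigned to DINOL alone. NORAD (chr20:36050481-36051200), which binds Pumilio proteins, had 5.16 and 9.38 in DMSO against 4.12 and 3.58 in ACSS2i. Both genes were lower in both ACSS2i libraries than in either DMSO library, as most regions were.

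Of 15 nuclear architecture and imprinting lncRNAs, 13 were in the gene table and 8 had an lncRNA-end region. Of 7 present in both DMSO lists, 4 had a peak in all 4 libraries, 2 in 1 ACSS2i library and 1 in none. KCNQ1OT1 (chr11:2699241-2701234), an imprinted transcript that silences neighbouring genes, had a fold of 7.33 and 9.16 in DMSO against 3.98 and 3.34 in ACSS2i, which did not overlap. PEG13, another imprinted lncRNA, had 7.15 and 7.05 in DMSO and 3.24 in ACSS2i replicate 2 only. The DMSO-only gene was JPX, of the X-inactivation centre, with 4.56 and 10.1 in DMSO, named after its values were seen.

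Of 18 lncRNAs linked to YAP, TGF-beta and mesenchymal state, 5 had an lncRNA-end region, 4 were present in both DMSO lists and 3 in all 4 lists. LINC00973 (chr3:98914247-98914831) had a fold of 7.02 and 10.9 in DMSO against 6.82 and 6.85 in ACSS2i, close to DMSO replicate 1. LINC00941 (chr12:30794900-30796552) had 6.28 and 6.84 in DMSO against 5.05 and 4.70 in ACSS2i, and LINC01116 (chr2:176637348-176638368), in a region shared with LINC01117, had 5.45 and 7.81 in DMSO against 4.06 and 3.38 in ACSS2i. HOXA-AS2, from the HOXA cluster, was weak in DMSO replicate 1, with 2.42 and 4.72 in DMSO and 3.13 in ACSS2i replicate 2 only.

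Lists of lncRNAs of other cell types also had regions, and 14.4% of all noncoding genes in the table had one. Of 10 immune lncRNAs, 3 had an lncRNA-end region: MIR155HG, LINC01781 with 5.23 and 7.01 in DMSO and 5.25 in ACSS2i replicate 2, and PCED1B-AS1 with 4.37 in DMSO replicate 2 alone. Of 11 neuronal or germ cell lncRNAs, 10 were in the gene table and 2 had a region: MIAT with 3.29 and 7.20 in DMSO, and SOX2-OT with 4.31 in DMSO replicate 2 alone.

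**Figure D3:**
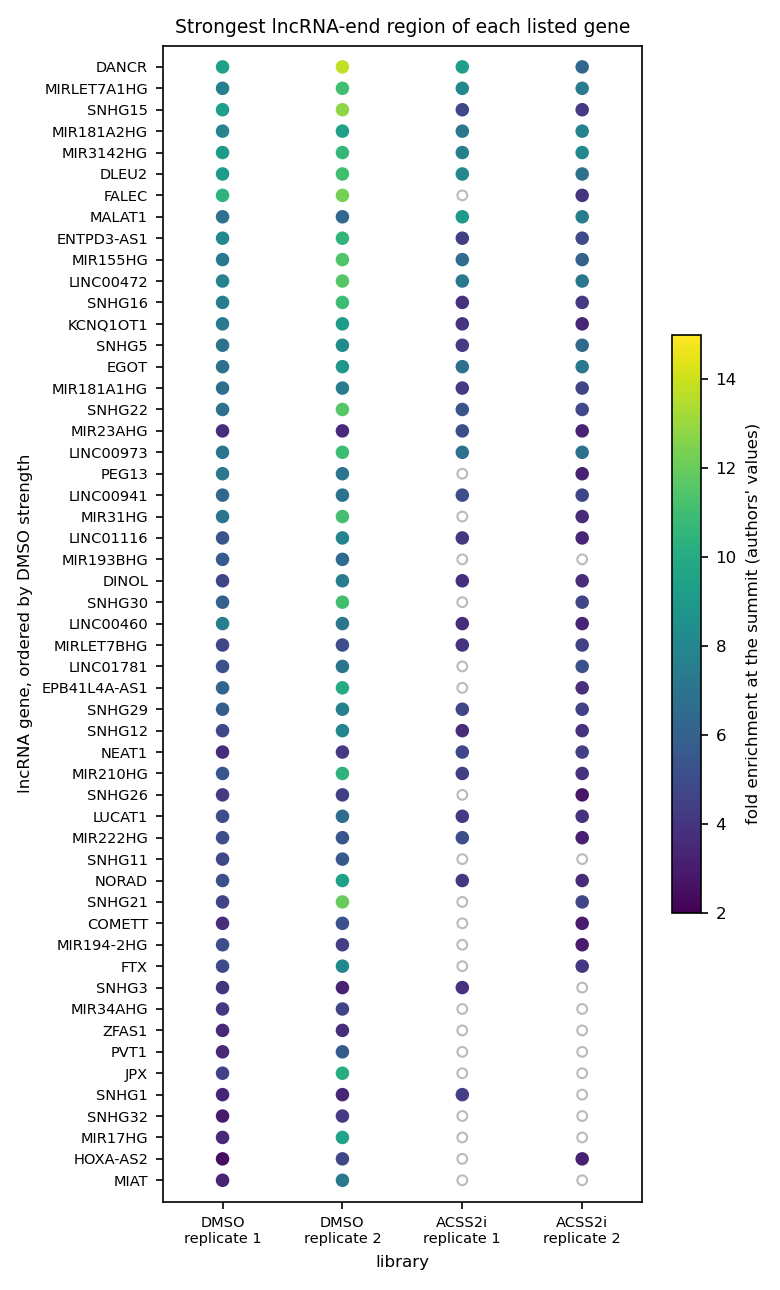
Each row is one of the 53 listed lncRNA genes whose strongest lncRNA-end region had a peak in both DMSO libraries, ordered by DMSO strength with the strongest at the top, and each column is a library. Filled points are coloured by fold enrichment (authors' values) and open points mark no peak: 30 genes had a peak in all 4 libraries, 14 in 3 and 9 in 2, and most open points lie in the lower part.

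Ranks within the 13306 regions found in all 4 libraries put every library on a set of the same length. The median percentile of the 826 lncRNA-end regions in this set was 49.7 and 49.2 in DMSO against 49.3 and 51.2 in ACSS2i, a difference of 0.798 (exact permutation p = 0.667). The groups overlapped. At equal list length the difference was 2.90 (exact permutation p = 0.333), without overlap. Both ACSS2i percentiles lay above both DMSO percentiles for 178 (21.5%, against 18.1% over all regions), and below for 137 (16.6%, against 16.5%). For protein-coding ends these shares were 14.9% and 20.6%, and for regions away from ends 20.1% and 13.5%.

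The widest gap upward was beside NEAT1, whose percentiles were 15.9 and 19.2 in DMSO against 64.5 and 65.3 in ACSS2i. These are ranks of −log10 q, and its pileup, given above, was lower in both ACSS2i libraries than in either DMSO library. ARRDC3-AS1 followed with 11.2 and 7.96 in DMSO against 55.3 and 62.6 in ACSS2i, and LINC00973 had 30.2 and 27.7 in DMSO against 76.2 and 69.4 in ACSS2i. In these 3 the 2 libraries of a group lay closer together than the groups did. LOC105377853 and LOC105371763 complete the 5 widest upward gaps. The 3′ end of MALAT1 had 92.0 and 58.1 in DMSO against 99.2 and 96.3 in ACSS2i, also upward but with a wide spread in DMSO.

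The widest gap downward was at LOC105377308, with 64.3 and 78.9 in DMSO against 7.67 and 21.1 in ACSS2i. ELN-AS1, antisense at the elastin gene, had 72.5 and 46.0 in DMSO against 1.20 and 6.28 in ACSS2i. SNHG15 had 87.8 and 86.0 in DMSO against 52.3 and 46.1 in ACSS2i, the tightest pair of DMSO values of the 5. The others were LINC01572 and LOC105374368. These 10 regions were chosen by the size of the gap, so the values describe them and were not tested.

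**Figure D4:**
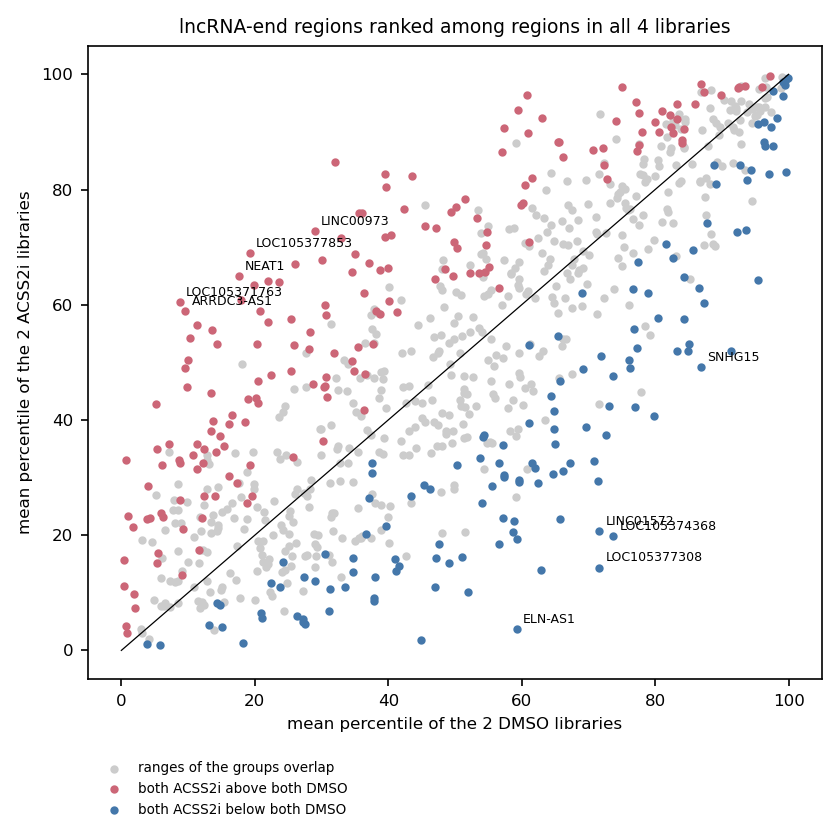
Each point is one of the 826 lncRNA-end regions with a peak in all 4 libraries, placed by its mean percentile in the DMSO libraries (x axis) and in the ACSS2i libraries (y axis) among the 13306 regions found in all 4, with the line of equal rank. Red points (178) have both ACSS2i percentiles above both DMSO percentiles and blue points (137) the reverse, and the 5 widest gaps on each side carry their gene names.

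By gene name, 1678 of the 2762 regions (60.8%) lay at LOC genes, whose names are provisional. LOC genes had a region at 1587 of 12408 genes (12.8%), LINC genes at 410 of 2309 (17.8%), antisense genes at 397 of 2047 (19.4%) and divergent transcripts at 53 of 592 (8.95%). Host genes of small RNAs had one most often, at 40 of 116 (34.5%). Genes with a region only near a protein-coding end do not count here. The rule thus lowers the share of classes that lie beside coding genes, such as divergent transcripts. These shares therefore do not rank the classes by how often they are open. Among regions that both DMSO lists contained, the DMSO-only share was 31.4% for LOC, 28.8% for LINC, 27.5% for antisense, 28.6% for divergent and 23.7% for host genes, the last from 38 regions. All lay below the 33.5% of all regions.

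The shares differed more by position than by name. An lncRNA end lay inside the region itself for 1286 regions, of which 23.7% of those with a peak in both DMSO libraries were DMSO-only. Where the end lay 1 to 500 bp away this was 38.7% (836 regions), at 501 to 1000 bp 38.6% (640 regions), and just outside the rule, at 1001 to 1500 bp, 41.7% (593 regions). Wider regions reach an end more often, and the part of width in this was not tested. Regions at a 5′ end numbered 1437 (27.1% DMSO-only), those at a 3′ end alone 510 (31.0%), and 815 lay at genes whose strand the sequence table does not give (35.4%). Regions with 1 summit in DMSO were DMSO-only in 40.4% of cases and those with 2 or more in 19.7%.

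The nearest protein-coding end was 24.9 kb away at the median (quartiles 8.16 and 69.4 kb), and 990 regions (35.8%) lay inside the span of a protein-coding gene. Of these 29.0% were DMSO-only, against 30.8% outside such spans. The coding limit of the rule removed 136 regions with a coding end 501 to 1000 bp away (37.8% DMSO-only) and kept 73 with one 1001 to 1500 bp away (34.0%). 253 genes had 2 or more regions, and 151 regions lay at 2 or more noncoding genes.

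Promoters of lncRNA genes under an lncRNA-end region held the AP-1 letters more often and the GC box less often than protein-coding promoters. There were 1039 of them among the 11466 lncRNA promoters in the RefSeq table, and their median GC content was 57%, against 50% for all lncRNA promoters and 66% for the 8722 protein-coding promoters under a region at a protein-coding end. The AP-1 letters were found in 23.0% of them, in 10.5% of all lncRNA promoters, in 4.24% of those protein-coding promoters and in 7.77% of all 27326 promoters. AP-1 proteins such as FOS and JUN bind this motif in response to growth and stress signals. The GC box, bound by SP1, was found in 39.4%, against 25.4% of all lncRNA promoters, 74.4% of the protein-coding promoters under a region and 44.6% of all promoters.

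The HRE letters, which hypoxia-inducible factors bind, were found in 21.8%, against 18.7%, 27.8% and 21.6% in the same sets. The shares for CCAAT were 34.2%, 34.8%, 38.0% and 35.7%, and for TATAAA 9.43%, 15.2%, 4.70% and 11.9%. TEAD letters were found in 20.1%, 17.3%, 10.1% and 14.0%, and the NRF1 core (GCGCATGC) in 2.89%, 1.91%, 6.32% and 3.27%. Between promoters under DMSO-only regions (184) and under regions in all 4 libraries (438), AP-1 was found in 19.6% and 24.2%, HRE in 22.8% of both, and the GC box in 42.9% and 43.6%. These shares are a description of letters in fixed windows, and no match shows that a factor binds.

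**Figure D5:**
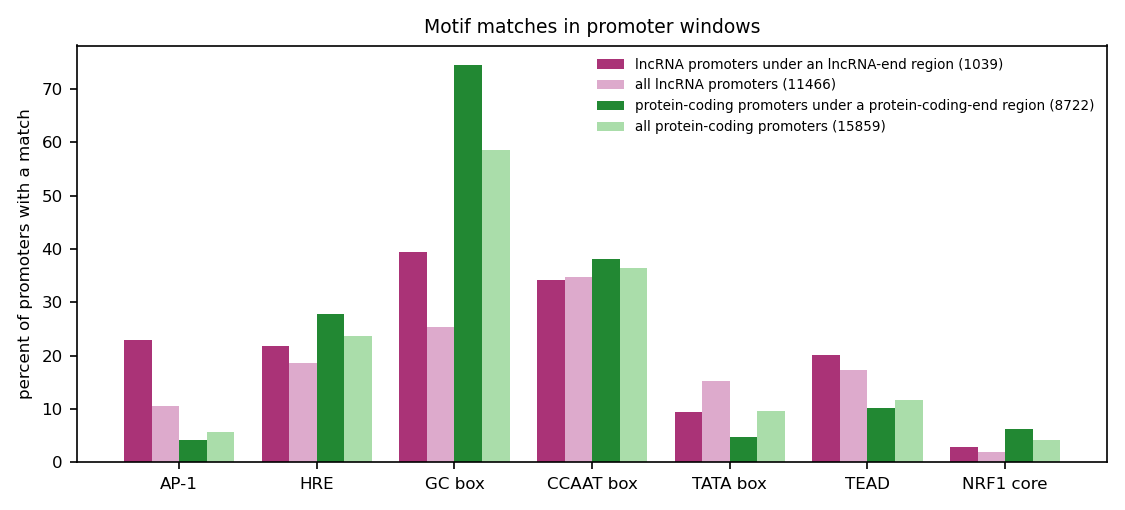
Bars give the percent of promoter windows of 300 bases with at least 1 match to each named motif (x axis) in 4 sets of RefSeq promoters, with the number of promoters in the legend. AP-1 stands at 23.0% in lncRNA promoters under an lncRNA-end region and 4.24% in protein-coding promoters under a region at a protein-coding end, and the GC box at 39.4% and 74.4%.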

How the data were processed

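ATAC-seq peak lists of 4 libraries were used, 2 from cells given DMSO and 2 from cells given ACSS2i, grouped by the treatment in the labels. The members and the gene lists were chosen with earlier results of these data known.

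Per the submitters' processing notes, the tools were MACS2 2.1.2, Bowtie2, Trimmomatic 0.38, bcl2fastq 2.17, Picard 2.18.26, SAMtools 1.9, bedtools, deepTools 3.5.0 and DiffBind, on hg38. Options, Tn5 shift, duplicate handling and peak filter, not given in the sources used here, can change which peaks are listed. Peaks removed by a filter or sites missed by the caller would count as no peak. The authors deposited a separate list per library with an integer score, which was not used. The deposited fold enrichment is the ratio of the summit to local background within a library. Deposited −log10 p-values and −log10 q-values are the caller's values within a library, all with −log10 q of at least 2. The deposited summit offset in bp gave summit positions.

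Summits of one interval were counted as 1 peak with the values of the strongest. The summit pileup (a whole number) and its Poisson background were recovered from fold and −log10 p, within 0.001 of the latter for at least 99.99% of summits per library, and the lowest recovered background was taken as genome background. Gene ends came from RefSeq GRCh38.p14, and strand from the RefSeq promoter table (11461 noncoding genes). Values per library were compared with an exact two-sided permutation test (Python 3.11.15, numpy 2.4.6, pandas 2.3.3, scipy 1.17.1), and the scripts were tested on simulated data. Intervals cover counting error only.

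Named genes were those of the 10 strongest regions in both DMSO libraries, the 10 strongest DMSO-only regions, the 5 strongest in ACSS2i with a peak in all 4 libraries, and up to 4 by strength from each gene list; the 5 widest rank gaps on each side, MIR210HG, the printed promoters and microRNAs, second regions of a listed gene, and other genes outside the rule were added after values were seen. Alternatives were other windows, a stricter q, another overlap, equal list length, no LOC genes, summit position, each library left out, and a replicate block.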

Additional observations from a re-analysis of the deposited data

How the results depend on the processing

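Of 69 values under the alternatives, 57 kept their direction and their side of the test threshold, or for counts stayed within 1.5 times the reported one. Another 9 moved and 3 reversed. The replicate block repeats the reported values by design, so its entries among the 57 could not have moved. Since no test of 2 against 2 can pass 0.05, keeping direction and side of the threshold says nothing about size. At equal list length the ratio of counts went from 0.480 to 0.981. The difference in share went from 0.475 to 0.0537 percentage points and that in median rank from 0.798 to 2.90. With all lists at 16400 peaks, DMSO-only regions fell to 53 (6.68%, against 6.41% over all regions). Regions with a peak only in both ACSS2i libraries then came to 35 (4.65%, against 4.16%). Without LOC genes, 231 regions were DMSO-only (28.5%, against 33.5% over all regions) and 380 had a peak in all 4 libraries (46.9%, against 42.2%). With each library left out in turn, DMSO-only regions numbered 667 to 1307. Without DMSO replicate 1 they were 1307 (49.4%, against 55.9% over all regions), and without DMSO replicate 2 they were 676 (34.6%, against 39.0%). Without ACSS2i replicate 1 they were 667 (36.2%, against 39.0%), and without ACSS2i replicate 2 they were 907 (49.2%, against 52.2%). Regions in every library left numbered 827 to 1178. Regions found in ACSS2i alone were 20 without ACSS2i replicate 1 (1.61%, against 5.42% over all regions) and 7 without DMSO replicate 2 (0.839%, against 0.560%). They were 5 without ACSS2i replicate 2 (0.521%, against 1.69%) and 0 without DMSO replicate 1 (against 0.119%). The difference in median rank turned to -0.101 with a window of 500 bp, to -0.318 by summit position and, with each library left out, ranged from -0.501 (without ACSS2i replicate 2) to 1.94, none of them past a threshold. Apart from equal length and the changes in the samples or genes used, the cause was not tested.

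The labels number the libraries 1 and 2 in both groups. With a replicate block, the ratio of counts was 0.480 (exact sign-flip p = 0.5), the difference in share 0.475 percentage points (exact p = 0.5) and that in median rank 0.798 (exact p = 1). The smallest p that 2 pairs allow is 0.5. Same-numbered libraries did not deviate together clearly, with a correlation of 0.0950 across 13306 regions and 0.0524 across 826 lncRNA-end regions, and regions are not independent replicates.

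Of 53 named genes, the number of libraries with a peak changed for 3 at a −log10 q of at least 3, for 13 at equal list length (among them LUCAT1, which kept a peak in 1 library, and NORAD, in 3) and for 11 with a window of 500 bp (among them NEAT1, TMEM105 and NDST1-AS1, whose regions lie farther than that from an end). With 2 libraries a group no test here can pass 0.05, and read totals were not used here.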
